A study of Mus musculus with 6 samples.

Results

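The Fos, Jun, and Egr transcription factors and Atf3 were followed at the RNA level in Hepa1-6 tumors with and without sorafenib (Sora). The 10 genes Fos, Fosb, Fosl1, Fosl2, Jun, Junb, Jund, Egr1, Egr2, and Atf3 were chosen by exact symbol from the 26167 genes of the expression tables, as members of the immediate-early group, with earlier results of these data known. All 10 had enough reads to be tested, among 16513 genes in all. Hepa1-6, written Hep1-6 in the sample labels, is a mouse hepatoma cell line. Individual female C57BL/6J mice, 6 to 8 weeks old, carried the tumors under the skin from day 0. The treated group comprised 3 tumors, numbered 2, 3, and 4 in the labels, from mice given 10 mg/kg Sora into the peritoneum on day 9 and again on days 11, 13, and 15. The control group comprised 3 tumors, numbered 1, 3, and 4. What the control mice were injected with, and the time between the last dose and collection of the sequenced tumors, are not given in the sources used here. The labels do not say that each library came from a separate mouse, so the p-values measure the spread between these samples.

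Fos and Jun proteins are basic leucine zipper (bZIP) factors that bind DNA as pairs known together as AP-1. Fos proteins need a Jun partner, whereas Jun proteins can also pair with each other and with ATF proteins such as ATF3. EGR proteins are zinc finger factors that bind GC-rich sites. Growth factors, cytokines, and stress switch on most of these genes within minutes through ERK, JNK, and p38 kinases acting on factors already present, such as SRF and ELK1, and their transcripts are short-lived. Sora blocks RAF kinases, which lie upstream of ERK, and the receptors VEGFR and PDGFR.

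Each tumor had between 31073830 and 36205814 counted reads. The count table held 5 of the 6 tumors, and for Sora-treated tumor 4 whole counts were recovered from its FPKM (reads scaled to gene length and library size), so results are also given without that tumor. CPM are reads scaled to library size only, after TMM scaling of the libraries. A gene was called when its adjusted p was under 0.05 in edgeR's quasi-likelihood test with Benjamini-Hochberg adjustment over all genes tested. Of the hepatoma genes, Alb was at 1993 to 3509 CPM and Afp at 655 CPM or more in the 6 tumors, whereas Apoh had at most 3 reads per tumor. These libraries hold RNA of all cells of a tumor, so fewer cells of a type and less RNA per cell cannot be told apart.

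The start regions of Fosb, Junb, and Fosl2, the AP-1 genes that were called higher in Sora-treated tumors, and of Fos, which was not called, are shown so that the sites known from textbook immediate-early promoters can be compared between them. Each is the 250 bases before and 50 bases after a start of the gene in RefSeq's annotation of mouse GRCm38.p6, written along the gene's own strand. For Fos, Junb, and Fosl2 that start is where the gene span given below begins, but for Fosb it is not. Capitals mark the CRE core TGACG, the EGR site GCGNGGGCG, and the TATA box TATAAA, each searched on both strands. The marked motifs do not overlap each other.

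Fosb, chr7:19309996-19310295, minus strand, holds a CRE core at -60 and an EGR site at -50 from the start used for this window. The gene spans chr7:19302696-19310118, so that start and both sites lie inside the annotated gene. The positions in Fosb are therefore not counted from the same kind of point as those in the other 3 genes shown.
Fosb: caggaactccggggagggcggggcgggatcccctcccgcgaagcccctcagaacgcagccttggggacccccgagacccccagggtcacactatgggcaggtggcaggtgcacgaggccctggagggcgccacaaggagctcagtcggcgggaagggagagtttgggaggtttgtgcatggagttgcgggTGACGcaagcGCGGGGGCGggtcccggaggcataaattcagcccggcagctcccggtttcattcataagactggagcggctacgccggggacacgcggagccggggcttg

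Junb, chr8:84978699-84978998, minus strand, holds a CRE core at -106 and a TATA box whose first base is base 1 of the annotated gene. The gene spans chr8:84976909-84978748 and has 1 exon.
Junb: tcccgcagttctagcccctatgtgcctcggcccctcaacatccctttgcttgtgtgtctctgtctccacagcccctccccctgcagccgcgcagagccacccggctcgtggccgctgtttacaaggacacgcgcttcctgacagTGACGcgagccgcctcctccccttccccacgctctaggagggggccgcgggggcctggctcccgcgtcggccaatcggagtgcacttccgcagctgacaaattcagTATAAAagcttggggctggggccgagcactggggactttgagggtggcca

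Fosl2, chr5:32136222-32136521, plus strand, holds an EGR site at -79. The gene spans chr5:32136472-32157840.
Fosl2: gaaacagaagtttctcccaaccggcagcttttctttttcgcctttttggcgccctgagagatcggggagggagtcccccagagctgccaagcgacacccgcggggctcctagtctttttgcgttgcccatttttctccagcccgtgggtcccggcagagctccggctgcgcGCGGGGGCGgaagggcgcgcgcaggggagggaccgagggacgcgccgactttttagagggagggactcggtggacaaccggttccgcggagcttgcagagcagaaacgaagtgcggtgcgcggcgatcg

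Fos, chr12:85473640-85473939, plus strand, holds CRE cores at -129 and -66 and a TATA box at -33. The gene spans chr12:85473890-85477274.
Fos: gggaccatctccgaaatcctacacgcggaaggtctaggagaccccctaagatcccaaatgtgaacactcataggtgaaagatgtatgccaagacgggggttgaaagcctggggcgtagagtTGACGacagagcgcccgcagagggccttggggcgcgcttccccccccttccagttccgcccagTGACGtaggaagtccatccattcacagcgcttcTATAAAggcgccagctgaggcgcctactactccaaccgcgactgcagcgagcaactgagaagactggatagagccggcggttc

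Of the 10 members, 8 matched the promoter table, while Egr1, which was called higher, and Fosl1 did not and were not searched. The CRE core lay in 5 of these 8, namely Fos, Fosb, Junb, Egr2, and Atf3, and in 23.05% of all 27025 genes with windows of the same length, a gene counting where any of its windows held the motif. The EGR site lay in Fosb and Fosl2 and in 6.27% of all genes. TATAAA lay in Fos and Junb and in 15.7% of all genes. The SRF-bound CArG box, searched by its consensus, lay in Egr2 and in 1.81% of all genes. Egr2 had 5 windows and each other matched member 1, and a box more than 250 bases before the start would not be seen. The AP-1 site TGANTCA lay in 0 of the 8 and in 8.97% of all genes, so these letters were not within these windows. A motif match describes the letters only. Members with a CRE core were found among those called higher (Fosb, Junb) and among those not called (Fos, Egr2, Atf3).

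Sora-treated tumors contained more Junb, Fosb, Egr1, and Fosl2 RNA than control tumors, by 1.27- to 1.64-fold, while no call was made for Fos, Fosl1, Jun, Jund, Egr2, and Atf3. Thus 4 of 10 members were called higher and 0 were called lower, where 1.94% of all genes tested were called higher and 1.34% lower. The median log2 fold change was 0.34 for the 10 members and -0.00037 for all genes tested. The same 4 members had Sora-treated tumors all above control tumors, as did 10.6% of all genes tested, and 0 members had them all below, as did 11.6%. DESeq2 called 5 members higher, Fosl1 in addition, where it called 3.79% of all genes higher. Without Sora-treated tumor 4, edgeR called 0 members and 5 of 16319 genes, or 0.0306%. In that fit, 6 of 10 members had an unadjusted p under 0.05, against 11.9% of all genes, and the median log2 fold change of the 10 members was 0.25. DESeq2 on the 5 deposited count columns called 3 members (Egr1, Fosl2, and Junb) and 1.7% of all genes higher. By edgeR, 0 members were called without control tumor 1, control tumor 4, or Sora-treated tumor 2, where 0.705%, 0.717%, and 0.509% of all genes were called higher. There were 2 without control tumor 3 (Junb and Egr1, with 1.28% of all genes) and 5 without Sora-treated tumor 3 (3.52% of all genes).

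**Figure D1:**
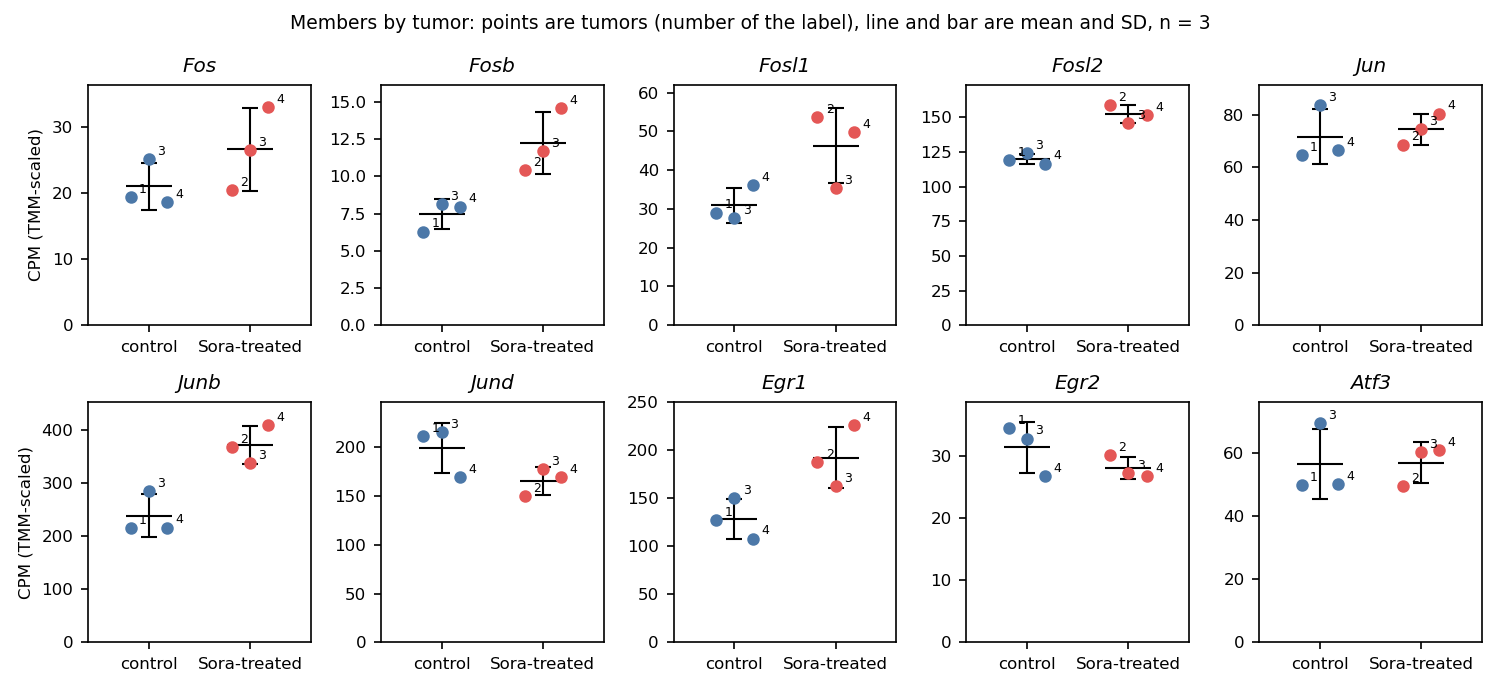
Expression of each member in CPM (TMM-scaled, linear axis from 0) in the 3 control tumors (blue) and the 3 Sora-treated tumors (red), with the tumor number beside each point and the mean and SD in black. The groups are apart for Fosb, Fosl2, Junb, and Egr1 and overlap for the other 6 members.

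In both groups Junb was the most abundant member per length and Fosb and Egr2 the least. The length behind the FPKM of Egr2 was 9083 bases, the longest of the 10 members, so its place depends on that length. Not scaled to length, Egr2 stood above Fos and Fosb, with control means of 31.3, 21.0, and 7.46 CPM. In control tumors, levels were 130 ± 18.7 FPKM (mean ± SD, n = 3) for Junb, 69.5 ± 8.77 FPKM for Jund, and 41.8 ± 6.13 FPKM for Egr1, and the tumors of these 3 genes did not overlap. Atf3 at 28.6 FPKM, Jun at 22.5 FPKM, Fosl1 at 18.2 FPKM, and Fosl2 at 17.0 FPKM followed, each overlapping its neighbor in the order. Fos at 9.97 FPKM, Egr2 at 3.46 FPKM, and Fosb at 1.98 FPKM came last and did not overlap. Junb lay at the 98.3rd percentile of all genes in control tumors and Fosb at the 58.7th. In Sora-treated tumors, Junb reached 200.3 ± 15.3 FPKM (mean ± SD, n = 3). Egr1 at 62.1 FPKM stood above Jund at 57.4 FPKM there, with overlapping tumors, and Fosb at 3.22 FPKM stood above Egr2 at 3.08 FPKM, also with overlapping tumors.

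Among the Fos family, Fosb and Fosl2 were up-regulated, whereas Fos was not called and Fosl1 lay just beyond the threshold. Fosb, which encodes FosB, had 6.29, 8.13, and 7.97 CPM in control tumors 1, 3, and 4 and 10.4, 11.7, and 14.6 CPM in Sora-treated tumors 2, 3, and 4. All 3 Sora-treated tumors were above all control tumors, and tumor 4 was the highest. Fosb rose 1.64-fold (log2 fold change 0.71, SE 0.16, 95% interval 0.35 to 1.07, edgeR adjusted p = 0.0422) on 202 to 483 reads per tumor. The log2 fold change of Fosb was 0.57 without Sora-treated tumor 4 (adjusted p = 0.196 in edgeR). Its edgeR adjusted p was also above 0.05 without control tumor 1 (0.122), 3 (0.0691), or 4 (0.0937) or Sora-treated tumor 2 (0.0663).

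Fosl2 encodes Fra-2, which lacks the strong activation domain of Fos. It had 119, 124, and 117 CPM in control tumors 1, 3, and 4 and 159, 146, and 152 CPM in Sora-treated tumors 2, 3, and 4. The groups were apart and each was narrow, with an SD of 3.12% of the mean in control tumors and 4.23% in Sora-treated tumors, the lowest of the 10 members in both groups. Fosl2 rose 1.27-fold (log2 fold change 0.34, SE 0.07, 95% interval 0.19 to 0.50, edgeR adjusted p = 0.0287). Its log2 fold change was 0.35 without Sora-treated tumor 4, with an edgeR adjusted p of 0.123. The call was lost as well without control tumor 1, 3, or 4 or Sora-treated tumor 2, with edgeR adjusted p of 0.0838, 0.0526, 0.0821, and 0.119.

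Fosl1 encodes Fra-1, the other family member without that domain. It had 29.1, 27.7, and 36.1 CPM in control tumors and 53.8, 35.4, and 49.9 CPM in Sora-treated tumors 2, 3, and 4. Sora-treated tumor 3 lay just below control tumor 4, so the groups overlapped. For Fosl1 the log2 fold change was 0.58 (SE 0.15, 95% interval 0.25 to 0.91, edgeR adjusted p = 0.0615), and 0.53 without Sora-treated tumor 4 (adjusted p = 0.242). DESeq2 gave an adjusted p of 0.00275, and edgeR gave 0.00605 without Sora-treated tumor 3. An opposite-strand neighbor, Ccdc85b, overlaps Fosl1, and its log2 fold change was -0.03 (edgeR adjusted p = 0.924). Whether counting used strand is not given in the sources used here.

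Fos, the founding member, had 19.3, 25.1, and 18.6 CPM in control tumors and 20.4, 26.4, and 32.9 CPM in Sora-treated tumors 2, 3, and 4. Sora-treated tumor 4 was the highest, and Sora-treated tumor 2 lay within the control tumors. The log2 fold change of Fos was 0.34 (SE 0.17, 95% interval -0.03 to 0.71, edgeR adjusted p = 0.333), and it was 0.16 without Sora-treated tumor 4 (adjusted p = 0.763). Its SD was 23.5% of the mean in Sora-treated tumors, the widest of the 10 members. The interval of Fos therefore includes both no difference and the 0.64 measured for Junb.

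In the Jun family, Junb was up-regulated, whereas Jun had an estimate near 0 and Jund a negative one, neither called. Junb encodes JunB, which can restrain the activity of Jun in many cells. Junb had 214, 285, and 216 CPM in control tumors 1, 3, and 4 and 366, 337, and 408 CPM in Sora-treated tumors 2, 3, and 4. Control tumor 3 was the highest control, yet all Sora-treated tumors were above it. Junb rose 1.55-fold (log2 fold change 0.64, SE 0.12, 95% interval 0.38 to 0.90, edgeR adjusted p = 0.0211), the smallest adjusted p of the 10 members. Without Sora-treated tumor 4 the log2 fold change of Junb was 0.56 (adjusted p = 0.116 in edgeR). Its edgeR adjusted p was 0.0688 without control tumor 1, 0.0772 without control tumor 4, and 0.0631 without Sora-treated tumor 2. Junb was called in 9 of 15 other settings, more than any other member.

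Jun, a strong activator among the Jun proteins, had 64.7, 83.7, and 66.6 CPM in control tumors and 68.7, 74.5, and 80.5 CPM in Sora-treated tumors. All 3 Sora-treated tumors lay between the lowest and the highest control tumor. The log2 fold change of Jun was 0.06 (SE 0.11, 95% interval -0.17 to 0.29, edgeR adjusted p = 0.831), and 0.0011 without Sora-treated tumor 4. The interval excludes the 0.64 measured for Junb, but it does not show that Jun was the same in both groups. The antisense gene Junos, which overlaps Jun, had 135 to 222 reads per tumor against 2078 to 2726 for Jun.

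Jund encodes JunD, the Jun protein that is present in resting cells and least dependent on growth signals. It had 212, 216, and 170 CPM in control tumors 1, 3, and 4 and 150, 178, and 170 CPM in Sora-treated tumors 2, 3, and 4. Control tumor 4 lay within the Sora-treated tumors. For Jund the log2 fold change was -0.26 (SE 0.10, 95% interval -0.49 to -0.04), which had an unadjusted p of 0.027 and an edgeR adjusted p of 0.211. The estimate was -0.28 without Sora-treated tumor 4 (adjusted p = 0.412).

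**Figure D2:**
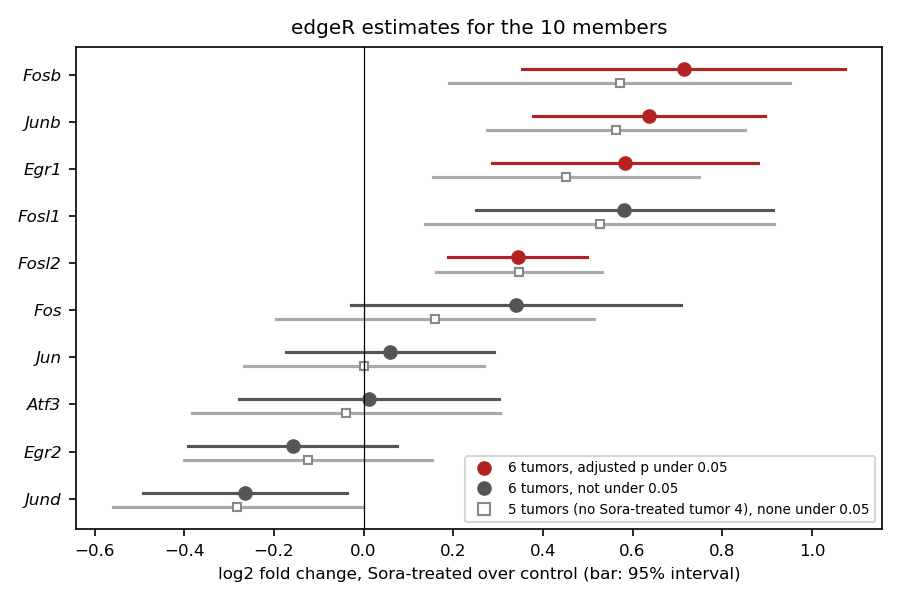
Log2 fold change of Sora-treated over control tumors from edgeR with its 95% interval, for all 6 tumors (circles, red where the adjusted p is under 0.05) and for the 5 tumors with deposited counts (grey squares). Fosb, Junb, Egr1, and Fosl2 are red at 0.34 to 0.71, and the estimates without Sora-treated tumor 4 for these 4 lie at 0.35 to 0.57.

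With Junb higher and Jund not, the makeup of the Jun family per length differed between the groups. Of the summed FPKM of Jun, Junb, and Jund, control tumors 1, 3, and 4 drew 55.3%, 60.5%, and 59.5% from Junb, whereas Sora-treated tumors 2, 3, and 4 drew 73.0%, 68.3%, and 72.5% from it. Jund supplied 31.4 ± 3.15% in control and 20.5 ± 2.21% in Sora-treated tumors (mean ± SD, n = 3), and Jun supplied 10.2 ± 0.476% and 8.29 ± 0.410%. The tumors of both groups were apart for all 3 shares, which sum to the whole and so are not independent of each other. The ratio of Junb to Jun FPKM was 5.62 to 5.90 in control tumors and 7.83 to 9.24 in Sora-treated tumors. The ratio of Junb to Jund FPKM was 1.58 to 2.06 and 2.97 to 3.82. These ratios were not tested.

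The Fos family summed to 47.2 ± 1.56 FPKM in control tumors and to 64.2 ± 5.78 FPKM after Sora (mean ± SD, n = 3), with the groups apart. Within the family, the shares overlapped for all 4 genes. Fosl1 and Fosl2 together made up most of the family's FPKM, with mean shares of 38.6% and 36.1% in control tumors. After Sora these shares were 41.9% and 33.5%. The mean shares in control and Sora-treated tumors were 21.2% and 19.6% for Fos and 4.19% and 5.04% for Fosb. The Jun family summed to 222 ± 26.2 FPKM in control tumors and to 281 ± 14.3 FPKM after Sora, also apart.

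**Figure D3:**
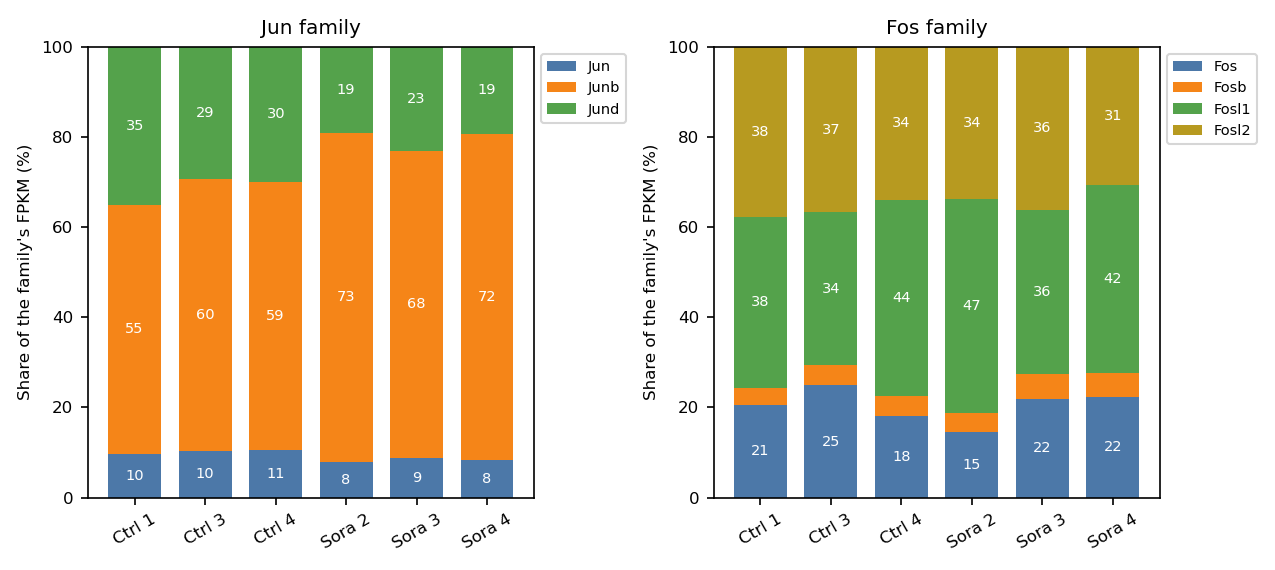
Share of each gene in the summed FPKM of the Jun family (left) and the Fos family (right), in percent, with 1 bar per tumor. Junb takes 55.3% to 60.5% of the Jun family in control tumors and 68.3% to 73.0% in Sora-treated tumors, whereas the Fos family shares overlap.

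Of the EGR factors, Egr1 was up-regulated and Egr2 was not called. Egr1, a classic early response gene of growth factor signaling, had 127, 150, and 108 CPM in control tumors 1, 3, and 4 and 187, 163, and 226 CPM in Sora-treated tumors 2, 3, and 4. All Sora-treated tumors were above control tumors, with tumor 4 the highest and tumor 3 the closest to control. Egr1 rose (log2 fold change 0.58, SE 0.13, 95% interval 0.29 to 0.88, edgeR adjusted p = 0.0431). For Egr1 the log2 fold change was 0.45 without Sora-treated tumor 4 (adjusted p = 0.192 in edgeR). Its edgeR adjusted p was 0.113 without control tumor 1, 0.131 without control tumor 4, and 0.105 without Sora-treated tumor 2.

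Egr2, known for its roles in Schwann cells and in T cells, had 34.4, 32.7, and 26.7 CPM in control tumors and 30.1, 27.2, and 26.7 CPM in Sora-treated tumors. The groups overlapped, and the log2 fold change of Egr2 was -0.16 (SE 0.11, 95% interval -0.39 to 0.08, edgeR adjusted p = 0.498), and -0.12 without Sora-treated tumor 4. Per length, Egr1 exceeded Egr2 by 10.9 to 13.5 times in control tumors and by 17.7 to 25.0 times after Sora. The size of these ratios depends on the lengths behind the FPKM, 3072 bases for Egr1 and 9083 for Egr2. The latter is longer than the annotated Egr2 span, chr10:67534469-67542188. Of the other EGR genes, Egr3 had a log2 fold change of 0.07 (edgeR adjusted p = 0.914) and Egr4 had at most 1 read per tumor.

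Atf3, a bZIP factor induced by many stresses that can pair with Jun proteins, had 49.9, 69.4, and 50.2 CPM in control tumors and 49.5, 60.4, and 61.1 CPM in Sora-treated tumors. All 3 Sora-treated tumors were below control tumor 3, and 2 of them were above the other control tumors. The log2 fold change of Atf3 was 0.01 (SE 0.13, 95% interval -0.28 to 0.30, edgeR adjusted p = 0.978) and -0.04 without Sora-treated tumor 4.

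Single tumors stood out across several members. Sora-treated tumor 4 was the highest of all 6 for Fos, Fosb, Junb, and Egr1, and Sora-treated tumor 2 for Fosl1 and Fosl2. Control tumor 3 was the highest control for 8 of 10 members, the exceptions being Fosl1 and Egr2. Sora-treated tumor 3 was the highest of the 6 for 0 members.

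Related genes were read from 6 lists covering the same program, which share Ddit3 and Atf4 between 2 lists each. In all, 16 of 125 genes tested were called, all higher, where 1.94% of all genes tested were called higher. Without Sora-treated tumor 4, edgeR called 0 of them, as against 0.0306% of all genes, with 25 of 125 at an unadjusted p under 0.05, as against 11.9% of all genes. DESeq2 on the deposited counts called 16 of them, all higher, and 1.7% of all genes higher. Without control tumor 1, 3, or 4 edgeR called 8, 18, and 6 of them, where 0.705%, 1.28%, and 0.717% of all genes were called higher. Without Sora-treated tumor 2 or 3 the counts were 7 and 23, where 0.509% and 3.52% of all genes were called higher.

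Among other immediate-early genes, 8 of 32 tested rose, 0 fell, and 24 were not called, with a median log2 fold change of 0.17. The called genes were Ccn2, which encodes a matrix-associated growth regulator (0.83), Dusp1, a phosphatase of MAP kinases (0.74), Csrnp1 (0.62), the kinase Plk3 (0.53), Nfkbiz, a regulator of NF-κB target genes (0.48), Ier5l (0.43), Ier3 (0.42), and the kinase Sik1 (0.39), values being log2 fold changes. Dusp1 had 53.2 to 73.1 CPM in control tumors and 97.0 to 116 CPM in Sora-treated tumors (edgeR adjusted p = 0.013). Ccn2 had 182 to 260 CPM and 359 to 444 CPM (edgeR adjusted p = 0.0129). For both genes the groups were apart. The lowest log2 fold changes of the list were -0.15 for Ier5 and -0.13 for Btg2, with edgeR adjusted p of 0.371 and 0.464.

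The AP-1 target genes had a median log2 fold change of 0.337, against 0.342 for the members, with 3 of 23 called higher and 0 lower. These were Areg and Hbegf, ligands of the EGF receptor, and Plaur, the urokinase receptor. Areg had 13.3, 19.7, and 16.2 CPM in control tumors and 66.1, 33.2, and 71.7 CPM in Sora-treated tumors 2, 3, and 4. Areg rose by a log2 fold change of 1.80 (SE 0.25, edgeR adjusted p = 0.00868), and Hbegf by 1.04 (SE 0.16, edgeR adjusted p = 0.013). Plaur rose by 0.62 on the log2 scale. At the other end, Mmp9, a matrix protease, had -0.23, and Sprr1b, a keratinocyte envelope gene, had -0.18, and neither was called. At an unadjusted p under 0.05, 11 of the 23 were higher and 0 lower, where 8.53% of all genes tested were higher by that rule.

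Of the EGR corepressors and targets, 3 of 12 were called higher and 0 lower, with a median log2 fold change of 0.01. Nab2 encodes a corepressor that binds EGR proteins and is itself an EGR target. It had 60.8, 70.5, and 68.1 CPM in control tumors and 95.3, 79.4, and 96.7 CPM in Sora-treated tumors 2, 3, and 4, a log2 fold change of 0.45 (edgeR adjusted p = 0.032). Vegfa, the main angiogenic factor, rose by 0.67 on the log2 scale. Thbs1 at -0.14 and Fasl at -0.13 were the lowest and were not called.

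Of the ATF3 and stress response genes, 2 of 14 were called higher and 0 lower, with a median log2 fold change of 0.27. They were Ddit3, which encodes the stress bZIP factor CHOP (0.98), and Gadd45a, a growth arrest gene (0.63). Sesn2 at -0.07 and Trib3 at -0.02 were the lowest. Among the 21 bZIP partners and relatives, 1 gene, Ddit3, was called, and the median log2 fold change was -0.03. Maff at 0.29, Batf at -0.24, and Batf2 at -0.35 were not called.

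Of the 25 upstream kinases and SRF factors tested, edgeR called 0. There were 2 higher at an unadjusted p under 0.05, near the 8.53% of all genes, and DESeq2 called 2 higher, where it called 3.79% of all genes higher. Their median log2 fold change was 0.02. The highest were Map2k1, which encodes the ERK kinase MEK1, at 0.34 (edgeR adjusted p = 0.071) and Elk3, an SRF partner, at 0.31 (adjusted p = 0.052). The lowest were Rps6ka5 and Mrtfb, both at -0.13.

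**Figure D4:**
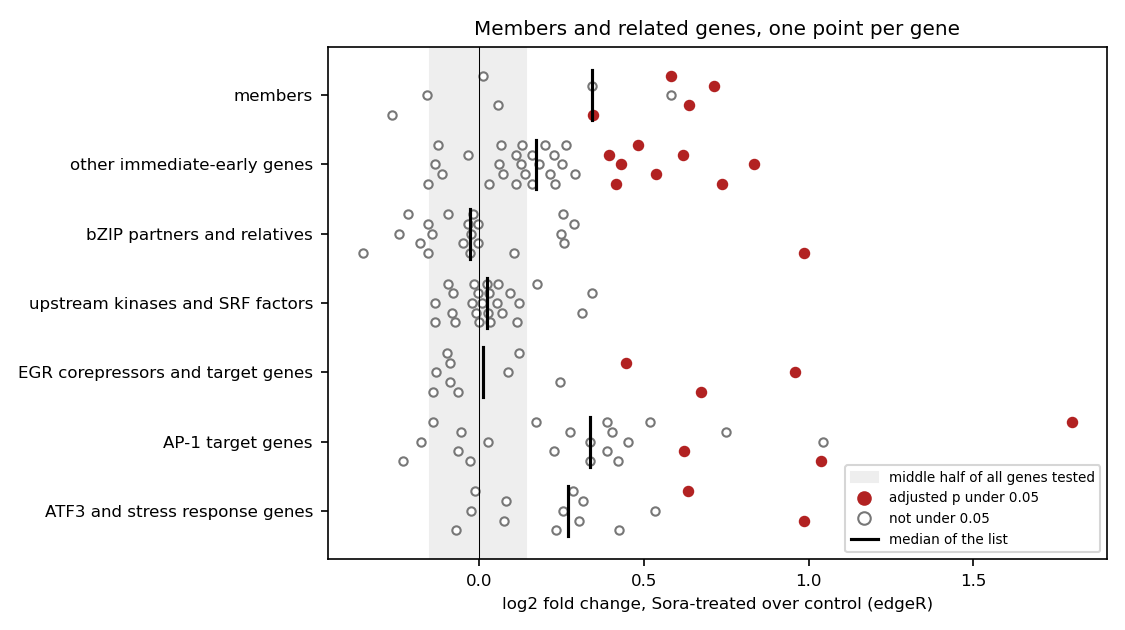
Log2 fold change of Sora-treated over control tumors (edgeR, 6 tumors) for the 10 members and the genes of 6 related lists, with 1 point per gene, red where the adjusted p is under 0.05. All called genes lie to the right of 0, and the black median lines stand at 0.34 for the members and the AP-1 targets and near 0 for the bZIP partners, the upstream kinases, and the EGR corepressors and targets.

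The summed markers of some cell types were apart between the groups, while those of others overlapped. Of all single genes tested, 10.6% were apart with Sora-treated tumors higher and 11.6% with them lower. Over 11 neutrophil markers, the summed level was 83.0 to 95.4 CPM in control tumors and 118 to 182 CPM in Sora-treated tumors, with 7 of 9 tested genes above 0 on the log2 scale, 1 called, and the defining marker Ly6g under 0.34 CPM throughout. The summed macrophage markers were at 1927 to 2264 CPM and 1619 to 1870 CPM, and all 11 had negative log2 fold changes. T cell markers were at 303 to 339 CPM and 237 to 257 CPM, and fibroblast markers at 8404 to 8612 CPM and 5846 to 7325 CPM. Called lower were 1 of 11 macrophage, 2 of 11 T cell, and 1 of 10 fibroblast markers, where 1.34% of all genes tested were. The summed B cell markers were at 18.5 to 20.7 CPM and 16.5 to 18.1 CPM, though 0 of 6 tested genes were called and 0 had groups apart. The summed red blood cell markers were at 47.0 to 129 CPM and 32.9 to 44.2 CPM, with 1 of 5 called lower and 2 apart. Cr2 was the 1 listed marker at 0 reads in every tumor. Keratinocyte markers were at 1264 CPM in control tumor 1, 392 and 479 CPM in the other control tumors, and 812 to 1171 CPM in Sora-treated tumors, so these groups overlapped, as did those of hepatoma, endothelial, muscle, and adipocyte markers. All 12 keratinocyte markers had positive log2 fold changes, with a median of 0.45 and 0 called. Of 9 hepatoma markers tested, 2 were called higher, Apoa1 (log2 fold change 1.03) and Hnf4a (0.80), and 2 lower, Alb (-0.55) and Ttr (-2.15). The summed neutrophil markers, to which Csf3r and S100a9 gave the most in that tumor, were highest in Sora-treated tumor 2, whereas Ly6g and Mmp8 were highest in Sora-treated tumor 4 and Retnlg in Sora-treated tumor 3. Fosl1 and Fosl2 were also highest in Sora-treated tumor 2, while Junb, Fosb, Egr1, and Fos were highest in Sora-treated tumor 4. The part of these cell types in the differences of the members was not tested.

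**Figure D5:**
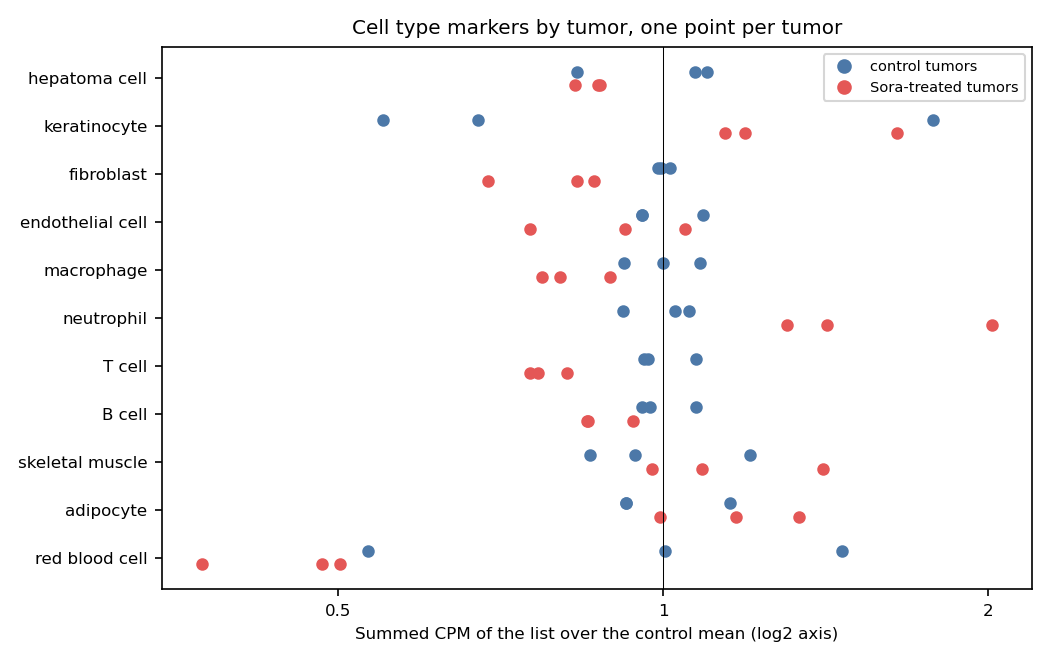
Summed CPM of 11 lists of cell type markers in each tumor, divided by the mean of the 3 control tumors (log2 axis). Neutrophil markers are higher in all Sora-treated tumors, fibroblast, macrophage, T cell, B cell, and red blood cell sums are lower in all of them, and the other 5 lists overlap.

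The genes whose values over the 6 tumors were most like those of a member were found by Pearson's r of log2(CPM + 1), among 14102 genes with a mean of at least 1 CPM. For Egr1 they included Emp1 (r = 0.997) and Ndfip2 (r = 0.996), with log2 fold changes of 0.36 and 0.25, neither called. For Fos they included Bnip3l (r = 0.990) and Dcaf15 (r = 0.989). The genes nearest to Jun were 2010320M18Rik (r = 0.993), S1pr4 (r = 0.990), and Mtln (r = 0.989), and those nearest to Atf3 were Ngly1 (r = 0.995), Anapc11 (r = 0.988), and Arhgap27 (r = 0.987). These r are descriptions over 6 tumors that share their libraries, and each was among the highest of 14102.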

How the data were processed

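RNA of 3 control and 3 Sora-treated Hepa1-6 tumors was sequenced, 1 library per tumor. The authors deposited a table of counts, whole reads per gene without normalization, for 5 tumors, and a table of FPKM, those counts per gene length and library total, for 6. The study's methods name Bowtie2 and GRCm38, whereas the submitters' processing notes name fastp, HISAT2, HTSeq, R 3.2.0, DESeq2, and GRCm39. Annotation and strand setting are not given in the sources used here.

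The counts of Sora-treated tumor 4 were recovered from its FPKM and the lengths implied by the other tumors. Treating each deposited tumor as unknown returned its total and all 20969 to 21229 recoverable counts exactly, with 100% of values within 0.001 of a whole number. In tumor 4, 342 genes with 512 reads had no length and were left at 0. Depth was 31073830 to 36205814 reads, so counting error is small for all members but largest for Fosb.

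A gene was tested where 3 or more tumors had 10 or more counts, by edgeR 4.0.16 (glmQLFit, glmQLFTest, TMM) in R 4.3.3, group only, with Benjamini-Hochberg adjustment. Intervals are 95% and not adjusted for the number of genes. Alternatives were DESeq2 1.42.0, its size factors, other filters, limma 3.58.1 on log2(FPKM + 1) and log2(FPKM + 0.1), each tumor left out, and a replicate block. FPKM served to compare levels between genes. Of the lists, named genes were those with an adjusted p under 0.05 and the 2 highest and 2 lowest log2 fold changes among genes of at least 1 CPM, and for Fos, Jun, Egr1, and Atf3 the 3 most alike genes. Egr3, Egr4, overlapping neighbors, and single cell type markers are named outside that rule and were chosen after their values were seen. Of the genes that the rule names, 3 are not reported here. The members and lists were chosen with earlier results of these data known. Promoters came from RefSeq, whose build may differ from that of the counts.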

Additional observations from a re-analysis of the deposited data

How the results depend on the processing

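Of the 10 members, edgeR called 4 with an adjusted p under 0.05. The count was 2 with limma for either pseudocount on FPKM, where 180 and 166 of 12305 genes were called higher. Limma over all 26167 genes called 0 genes in either direction, so its 0 members say nothing of the members (5 had an unadjusted p under 0.05, as did 3143 of all genes). It ranged from 0 to 5 when 1 tumor was left out, being 0 without control tumor 1, control tumor 4, Sora-treated tumor 2, or Sora-treated tumor 4. It was 4 or 5 with DESeq2, its size factors, no filter, or a filter in every tumor. Of 125 tested genes of the related lists, 16 were called, against 0 with limma over all genes and 0 to 23 with 1 tumor left out. The members whose groups did not overlap numbered 4 and ranged from 4 to 7 with 1 tumor left out, the 7 being without control tumor 4 (5 higher and 2 lower, where 16.2% and 16.6% of all genes did so). The replicate block, a fit with the tumor number as a block, called 0 members (6 at an unadjusted p under 0.05) and 7 genes of the lists, where it called 80 of 16513 genes higher and 45 lower and 1547 had an unadjusted p under 0.05. Only the numbers 3 and 4 occur in both groups, so control tumor 1 and Sora-treated tumor 2 add nothing to the group difference in that fit. The deviations from the group means correlated at -0.03 for the tumors numbered 3 and at -0.07 for those numbered 4. With 3 tumors per group these values cannot show whether equal numbers share a batch, and the labels do not say. Whether a call lost under the block reflects a weaker effect was not tested. The log2 fold change of Jun, 0.06, ranged from -0.0094 (without control tumor 1) to 0.185 (without control tumor 3) and turned to -0.00039 with DESeq2 on the 5 deposited columns, an alternative chosen after seeing the data. That of Atf3, 0.01, ranged from -0.069 (without control tumor 1) to 0.188 (without control tumor 3), was negative as well without control tumor 4, Sora-treated tumor 3, or Sora-treated tumor 4, and was -0.041 with DESeq2 on the deposited columns. The other 8 members kept their direction in all 15 alternatives, with log2 fold changes of 0.56 to 0.79 for Junb, 0.50 to 0.82 for Fosb, 0.45 to 0.71 for Egr1, 0.31 to 0.37 for Fosl2, 0.41 to 0.74 for Fosl1, 0.16 to 0.50 for Fos, -0.37 to -0.14 for Jund, and -0.26 to -0.08 for Egr2. Egr2 was at -0.08 without control tumor 1 and -0.26 without control tumor 4, and Jund at -0.14 with the replicate block. Leaving out a tumor lowers the number of samples, and the cause of the other changes was not tested. DESeq2 called 626 genes higher and 576 lower, and no filter 570 and 577, against 321 and 222. With 1 tumor left out, calls over all genes ranged from 4 higher and 1 lower without Sora-treated tumor 4 to 574 and 571 without Sora-treated tumor 3.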
